A study of Mus musculus with 12 samples.

Results

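The translocases that carry proteins into mitochondria were followed in whole mouse kidney 1 day after HP-AKI or a sham procedure. Their members were taken as the protein-coding genes whose symbol is Timm or Tomm followed by a digit, which gave 24 of the 43346 genes listed, or 24 of 22032 protein-coding genes. Of these, 14 carry Timm names, for translocases of the inner membrane and the intermembrane space, and 10 carry Tomm names, for those of the outer membrane. The HP-AKI group held 6 libraries, numbered 7, 8, 9, 11, 12 and 13, and the Sham group held 6 libraries, numbered 1 to 6. The labels do not spell out HP-AKI, which in this field stands for heme protein-induced acute kidney injury, and neither the agent that caused it nor strain, sex or age is given in the sources used here. Nothing in the labels says that the libraries came from separate animals, so the p-values speak only of how far these libraries spread, and that spread may be technical.

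Nearly all mitochondrial proteins are encoded in the nucleus, made in the cytosol and imported. The TOM complex of the outer membrane receives them with the receptors Tomm20, Tomm22 and Tomm70a and passes them through the Tomm40 pore. From there the TIM23 complex brings proteins with a presequence into the matrix, the TIM22 complex inserts carrier proteins into the inner membrane, and the small Tim proteins chaperone hydrophobic precursors across the space between the membranes. The proximal tubule, which makes up much of the kidney cortex, is among the tissues richest in mitochondria.

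Depth was similar in all libraries, with 31624522 to 40630917 counts assigned to genes in HP-AKI and 35201197 to 41951129 in Sham. Of the 24 members, 22 had enough counts to be tested, with 171 to 9040 counts in a library. Timm8a2, a paralogue of Timm8a1, had 25 counts in all over the HP-AKI libraries and 6 over the Sham libraries, and Tomm20l, a paralogue of Tomm20, had 2 in HP-AKI and 5 in Sham, so neither was tested. Libraries differed within their groups in how strongly transcripts of high guanine and cytosine (GC) content were counted. Measured as the difference between the most GC-rich and the most GC-poor genes, as a deviation from the library's own group mean, this tilt was -0.67 on the log2 scale in HP-AKI 8, -0.52 in Sham 1 and -0.73 in Sham 2. It lay between -0.27 (HP-AKI 9) and 0.51 (HP-AKI 13) in the other 9 libraries. The spread was thus graded, and leaving out HP-AKI 8, Sham 1 and Sham 2 does not remove all of it. The members' longest transcripts range from 40.7% to 58.3% GC, and calls, list counts and separations of the members' groups that change without HP-AKI 8, Sham 1 and Sham 2 are given with and without them. These libraries were picked by their tilt in these data, so ranges and p-values without them depend on that choice.

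The import translocases did not move as 1 block. In HP-AKI, 4 of the 22 tested members rose (Tomm34, Tomm70a, Tomm5 and Timm23) and 7 fell (Timm21, Tomm40l, Timm22, Timm9, Tomm7, Timm8b and Tomm20), at an adjusted p under 0.05 by edgeR's quasi-likelihood test with Benjamini-Hochberg adjustment over 17470 genes. The 11 called members are 50.0% of those tested, against 72.8% of all genes tested, 37.7% higher and 35.2% lower, so a smaller share of the translocases than of all genes passed. The median log2 fold change of the tested members was -0.11, against 0.04 over all genes tested. Without HP-AKI 8, Sham 1 and Sham 2, 4 members were higher and 10 lower, which is 63.6% called against 75.1% of all genes. In bulk tissue, fewer cells of a type and less RNA per cell cannot be told apart.

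The libraries of HP-AKI and Sham did not overlap in 7 members, 1 higher (Tomm34) and 6 lower (Timm21, Tomm40l, Timm22, Timm9, Tomm7 and Timm8b), where 52.4% of all genes tested had groups without overlap, 26.7% higher and 25.8% lower. The counts without HP-AKI 8, Sham 1 and Sham 2 were 5 members higher (Tomm34, Tomm70a, Tomm5, Tomm22 and Timm23) and 7 lower (the same 6 and Timm17b), where 35% of all genes tested were higher and 31.8% lower without overlap. Timm21 was the single member called with a change of at least 2-fold, a size that 33.1% of all genes tested passed.

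**Figure D1:**
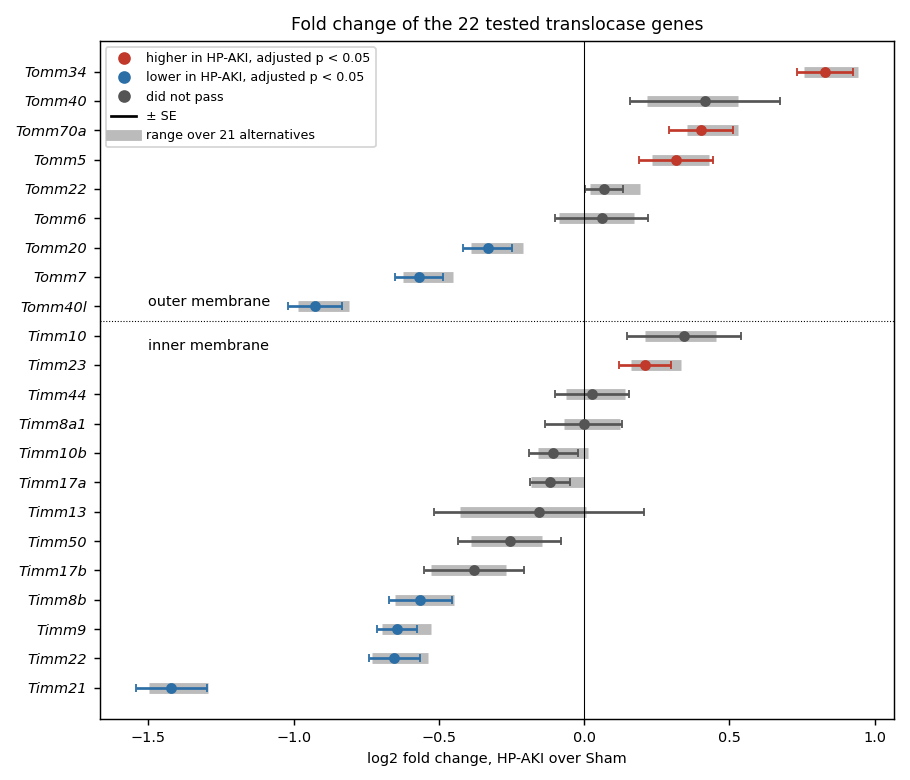
Log2 fold change (HP-AKI over Sham) of the 22 tested translocase members with its standard error (thin bars) and its range over 21 alternative settings (grey bars), by outer and inner membrane group and coloured by call. Tomm34 stands highest at 0.83 and Timm21 lowest at -1.42.

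Of 9 outer membrane members tested, 3 rose, 3 fell and 3 did not pass, with a median log2 fold change of 0.07. That is 66.7% called, near the 72.8% of all genes tested, which also divided about evenly into 37.7% higher and 35.2% lower. The 3 that rose are the cytosolic cochaperone, a receptor and a small subunit, and the 3 that fell are a receptor, a small subunit and the second form of the pore.

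Tomm34 (ENSMUSG00000018322, chr2:164053540-164071169 in GRCm38, minus strand) is a cytosolic cochaperone that binds Hsp70 and Hsp90 and helps to keep precursors unfolded. Its lowest, median and highest values were 25.5, 30.8 and 35.7 CPM (counts scaled to library depth) in HP-AKI, against 14.9, 17.6 and 19.99 CPM in Sham. Every HP-AKI library lay above every Sham library. Mean levels were 30.9 ± 3.34 CPM in HP-AKI and 17.4 ± 1.85 CPM in Sham (SD, n = 6 each), a 1.77-fold difference with a log2 fold change of 0.83 ± 0.10 (SE) and an adjusted p of 1.60e-06 by edgeR. Tomm34 overlaps Stk4 on the opposite strand by 848 bases, and the library kit does not mark strand, so reads from the shared stretch cannot be told apart. Stk4 was given 26090 counts over all libraries, against 10632 for Tomm34.

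Among the receptors, Tomm70a rose and Tomm20 fell. Tomm70a (ENSMUSG00000022752, chr16:57121714-57154530, plus strand), the receptor that docks chaperone-bound precursors such as the metabolite carriers, had 176, 194 and 222 CPM as lowest, median and highest values in HP-AKI and 128, 136 and 187 CPM in Sham. The groups overlapped because Sham 1 and Sham 2, at 184 and 187 CPM, lay within the HP-AKI range. The log2 fold change was 0.40 ± 0.11 with an adjusted p of 0.00400 by edgeR. Without HP-AKI 8, Sham 1 and Sham 2, the HP-AKI libraries spanned 176 to 222 CPM and the Sham libraries 128 to 137 CPM without overlap, with a log2 fold change of 0.52 and an adjusted p of 2.48e-05 by edgeR.

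Tomm20 (ENSMUSG00000093904, chr8:126930664-126945921, minus strand), the receptor that recognises presequences, had 119, 135 and 147 CPM as lowest, median and highest values in HP-AKI, against 139, 167 and 193 CPM in Sham. The groups overlapped at their edges, since Sham 5, at 139 CPM, lay within the HP-AKI range. The log2 fold change was -0.33 ± 0.08 with an adjusted p of 0.00236 by edgeR, and it passed in each of the 21 alternative settings. Tomm20 has 5 near-identical copies in the table, of which Gm14494 is 99.5% identical over 435 bases, and together they hold 7.91% as many counts as Tomm20. Tomm22 (ENSMUSG00000022427), the central receptor that links the others to the pore, did not pass, with 59.0, 61.2 and 67.8 CPM in HP-AKI and 56.4, 57.5 and 64.9 CPM in Sham, a log2 fold change of 0.07 ± 0.06 and an adjusted p of 0.348 by edgeR. Its groups did not overlap without HP-AKI 8, Sham 1 and Sham 2, at 59.0 to 67.8 CPM in HP-AKI and 56.4 to 57.7 CPM in Sham, but it still did not pass (log2 fold change 0.09, adjusted p = 0.186 by edgeR).

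The pore has a major form, Tomm40, and a less studied paralogue, Tomm40l. Tomm40l (ENSMUSG00000005674, chr1:171216011-171222514, minus strand) fell to 16.5, 20.9 and 23.1 CPM (lowest, median and highest) in HP-AKI, against 33.7, 39.8 and 43.6 CPM in Sham. All HP-AKI libraries lay below all Sham libraries. Means were 20.6 ± 2.21 CPM in HP-AKI and 39.1 ± 3.59 CPM in Sham, 1.90-fold lower, with a log2 fold change of -0.93 ± 0.09 and an adjusted p of 2.71e-07 by edgeR. It shares 4691 bases with Nr1i3 on the opposite strand, which was given 132 counts over all libraries against 13146 for Tomm40l. Tomm40 (ENSMUSG00000002984, chr7:19701313-19715438, minus strand) did not pass, with 8.80, 15.4 and 23.01 CPM in HP-AKI and 5.52, 13.001 and 16.4 CPM in Sham, a log2 fold change of 0.41 ± 0.26 and an adjusted p of 0.159 by edgeR. Its lowest HP-AKI value came from HP-AKI 8 and its lowest Sham values from Sham 1 and Sham 2, the libraries that count GC-rich transcripts least. Without those 3, its log2 fold change was 0.22 with an adjusted p of 0.229 by edgeR.

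The small Tomm subunits, which assemble and stabilise the pore, differed among themselves. Tomm7 (ENSMUSG00000028998, chr5:23838944-23844161, minus strand) fell to 43.6, 53.3 and 60.3 CPM in HP-AKI (lowest, median and highest), against 68.9, 79.4 and 84.4 CPM in Sham. The groups did not overlap, and the log2 fold change was -0.57 ± 0.08 with an adjusted p of 1.76e-05 by edgeR. Tomm5 (ENSMUSG00000078713) was called higher, with 24.4, 37.3 and 44.7 CPM in HP-AKI and 23.4, 30.5 and 33.5 CPM in Sham, a log2 fold change of 0.32 ± 0.13 and an adjusted p of 0.0371 by edgeR. HP-AKI 8, at 24.4 CPM, lay within the Sham range and the other 5 HP-AKI libraries lay above it. The call for Tomm5 held in 9 of 21 alternatives and was lost without HP-AKI 7 (log2 fold change 0.28), 9 (0.28), 11 (0.29), 12 (0.29) or 13 (0.23), and without Sham 1 (0.27), 2 (0.25) or 3 (0.32). Without HP-AKI 8, Sham 1 and Sham 2 together the groups did not overlap and the log2 fold change was 0.25, with an adjusted p of 0.00667 by edgeR.

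Tomm6 (ENSMUSG00000033475) had 18.9, 28.8 and 41.0 CPM in HP-AKI and 21.2, 28.9 and 32.1 CPM in Sham, and did not pass, with a log2 fold change of 0.06 ± 0.16 and an adjusted p of 0.744 by edgeR. It overlaps the gene model Gm21981 on the same strand by 1648 bases, and Gm21981 was given 12864 counts over all libraries and Tomm6 12392, so the counts of the pair cannot be told apart.

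**Figure D2:**
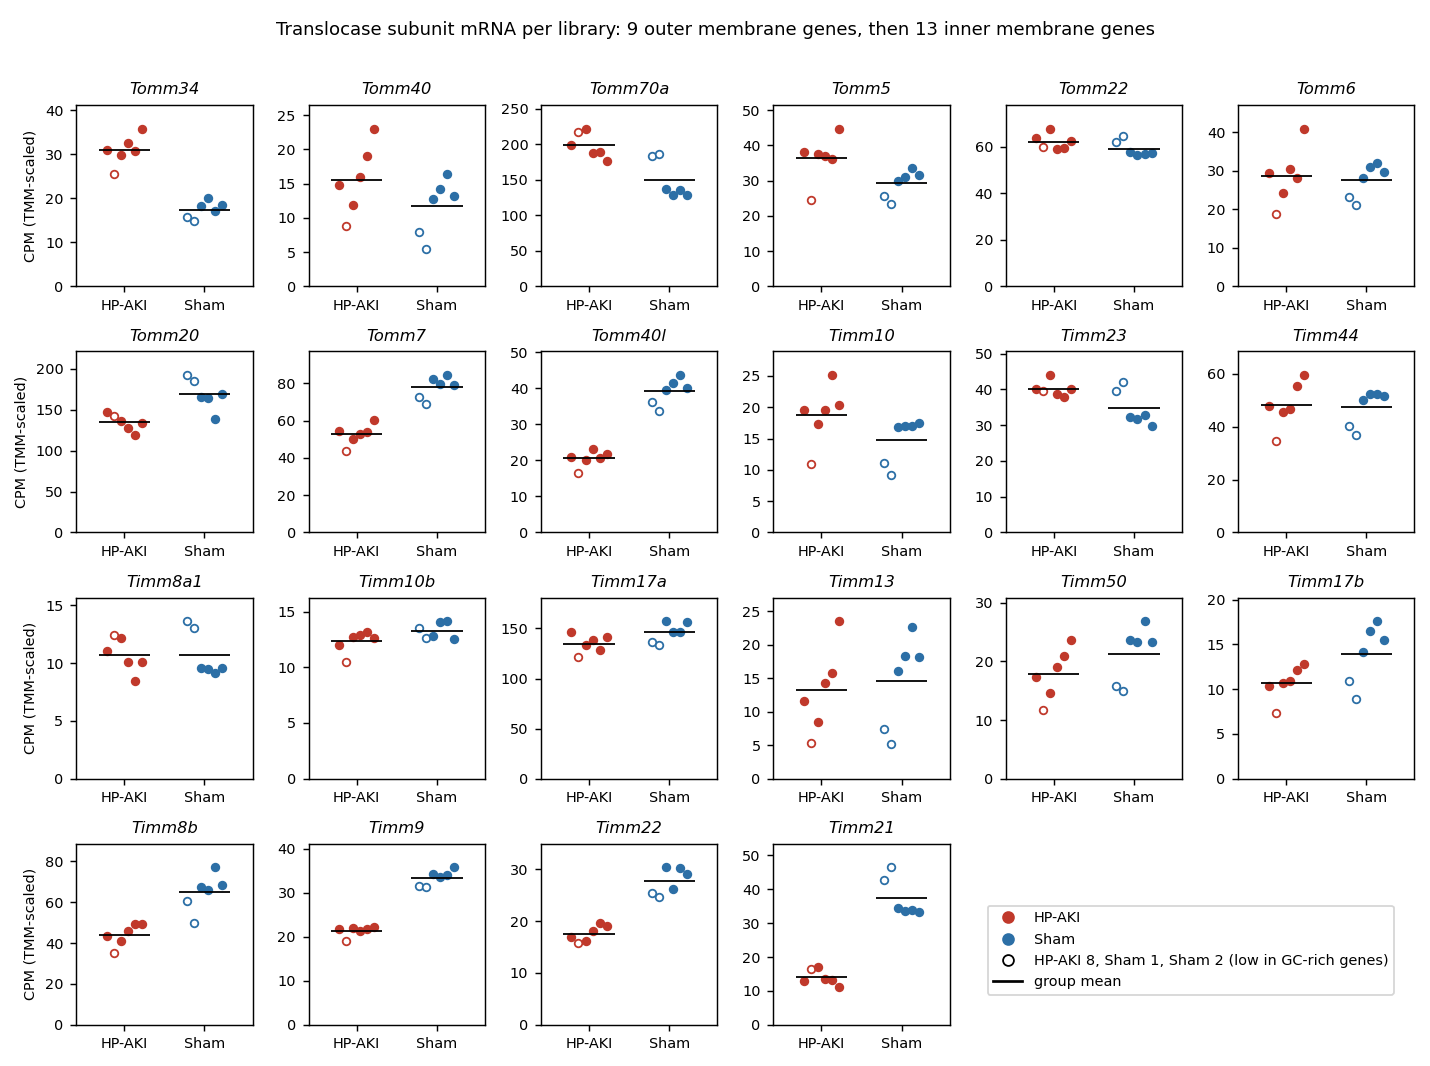
CPM of each tested member in each of the 6 HP-AKI and 6 Sham libraries on linear axes that start at 0, with 1 point per library, open points for HP-AKI 8, Sham 1 and Sham 2, and a bar at the group mean. Tomm34 lies wholly above Sham in HP-AKI, and Timm21, Tomm40l, Timm22, Timm9, Tomm7 and Timm8b lie wholly below.

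Promoters of some members that moved in opposite directions are shown. The sequence upstream of Tomm34 and Tomm70a, which rose, is set beside that of Timm8b and Tomm20, which fell. They are RefSeq windows of 250 bases before the annotated start in GRCm38.p6, read 5′ to 3′ along the gene's strand, and capitals mark motif matches. Tomm34 is given at the second of its 2 listed starts (chr2:164071103-164071352, minus strand), Tomm70a at chr16:57121464-57121713 (plus strand), Timm8b at chr9:50603651-50603900 (plus strand) and Tomm20 at chr8:126945922-126946171 (minus strand).
Tomm34: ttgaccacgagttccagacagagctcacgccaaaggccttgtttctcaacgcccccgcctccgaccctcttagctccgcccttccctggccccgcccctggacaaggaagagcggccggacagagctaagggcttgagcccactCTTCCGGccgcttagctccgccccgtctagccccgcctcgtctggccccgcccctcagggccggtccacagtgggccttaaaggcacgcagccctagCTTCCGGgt
Tomm70a: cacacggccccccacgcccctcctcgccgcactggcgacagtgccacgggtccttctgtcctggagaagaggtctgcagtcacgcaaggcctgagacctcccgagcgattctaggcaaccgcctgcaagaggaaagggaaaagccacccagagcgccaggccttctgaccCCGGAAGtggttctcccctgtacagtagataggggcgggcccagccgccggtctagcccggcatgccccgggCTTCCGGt
Timm8b: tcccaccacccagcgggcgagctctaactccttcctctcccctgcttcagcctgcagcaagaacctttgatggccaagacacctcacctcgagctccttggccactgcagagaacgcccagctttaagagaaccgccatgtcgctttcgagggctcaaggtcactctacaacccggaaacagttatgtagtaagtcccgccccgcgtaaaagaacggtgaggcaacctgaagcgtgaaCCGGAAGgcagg
Tomm20: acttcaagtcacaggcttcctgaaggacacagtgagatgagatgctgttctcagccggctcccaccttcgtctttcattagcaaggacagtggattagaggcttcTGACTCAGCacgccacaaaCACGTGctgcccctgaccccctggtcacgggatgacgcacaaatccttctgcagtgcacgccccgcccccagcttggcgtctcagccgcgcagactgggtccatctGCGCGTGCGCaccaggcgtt
In the first 3 of these windows the capitals are the ETS motif CCGGAAG or its reverse complement, which GABP, an activator of many nuclear genes for mitochondrial proteins, is known to bind. Its first base lay 106 and 9 bases before the start in Tomm34, 80 and 8 bases before it in Tomm70a and 12 bases before it in Timm8b. The window of the other listed Tomm34 start (chr2:164071170-164071419) adjoins the gene's listed coordinates. It held only the first of the Tomm34 sites, 39 bases before that start. In Tomm20 the capitals are, from 5′ to 3′, the antioxidant response element core TGACNNNGC, which NRF2 binds, the E-box CACGTG and the NRF1 motif, at 145, 126 and 20 bases before the start. These matches do not overlap. The ETS motif thus stood in the windows of both Tomm34 and Tomm70a, which rose, and of Timm8b, which fell. Of the other members called higher, Timm23 had an ETS match, and Tomm5, not shown, had no match to any motif searched. Timm22 and Timm9 also fell. The windows of Timm22, not shown, held no match, and that of Timm9 held an E-box and a heat shock element but no ETS motif.

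Of the 24 members, 21 genes have an entry, with 23 windows, of which 21 windows belong to tested members. The 3 members without an entry, Timm21, Tomm40l and Tomm7, all fell, so the windows cover only a part of the members that fell. Among the windows of tested members the ETS motif was found on either strand in 7, or 33.3%, belonging to Timm10, Timm23, Timm8b, Tomm22, Tomm34 and Tomm70a. Tomm34 is counted there at both of its starts. The share was 23% in windows of mitochondrial ribosomal protein genes, 16.9% in those of respiratory chain and ATP synthase genes, 13% in those of Slc25 carriers and 11.7% in 14897 windows of tested genes. The tested members' share was 14.3% against 7.83% of the windows of tested genes for the E-box, 4.76% against 6.92% for the NRF1 motif, 4.76% against 11.8% for the antioxidant element core and 28.6% against 34.6% for the CCAAT box. The heat shock element was matched in the Timm9 window alone, 4.76%, against 0.376% of the windows of tested genes. The YY1 motif and the ATF4 element were searched too and matched no window of a member. They matched 1.81% (YY1) and 2.05% (ATF4) of the windows of tested genes. A match is a description of letters and not of binding.

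A smaller share of inner membrane and intermembrane space members than of all genes tested was called. Of 13 tested Timm genes, 1 rose, 4 fell and 8 did not pass, with a median log2 fold change of -0.15. That is 38.5% called, against 72.8% of all genes tested, 37.7% higher and 35.2% lower. With HP-AKI 8, Sham 1 and Sham 2 left out, 1 was higher and 7 were lower (61.5% called, against 75.1% of all genes).

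Timm21 (ENSMUSG00000024645, chromosome 18) had the largest log2 fold change of the 22 tested members. This subunit of the TIM23 complex contacts the TOM complex and, in human cells, also takes part in the assembly of respiratory chain complexes. It fell to 11.1, 13.3 and 16.9 CPM in HP-AKI (lowest, median and highest), against 33.4, 34.2 and 46.5 CPM in Sham. The groups were far apart, with the highest HP-AKI library below the lowest Sham library. Means were 13.98 ± 2.22 CPM in HP-AKI and 37.4 ± 5.74 CPM in Sham, 2.68-fold lower, with a log2 fold change of -1.42 ± 0.12 and an adjusted p of 5.85e-08 by edgeR. Fbxo15, which overlaps it on the opposite strand, was given 65 counts over all libraries, against 11217 for Timm21.

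The channel subunit of the same complex was called in the other direction. Timm23 (ENSMUSG00000013701), which forms the presequence channel, was called higher, with 37.9, 39.9 and 44.0 CPM in HP-AKI and 29.8, 32.6 and 42.0 CPM in Sham, a log2 fold change of 0.21 ± 0.09 and an adjusted p of 0.0481 by edgeR. Sham 1 and Sham 2, at 39.5 and 42.0 CPM, lay within the HP-AKI range and the other 4 Sham libraries lay below it. The call held in 8 of 21 alternatives and was lost without HP-AKI 7 (log2 fold change 0.20), 8 (0.19), 9 (0.16), 11 (0.21) or 13 (0.20), and without Sham 3 (0.18), 4 (0.18), 5 (0.19) or 6 (0.16). Without HP-AKI 8, Sham 1 and Sham 2 together the groups did not overlap and the log2 fold change was 0.30, with an adjusted p of 0.00110 by edgeR.

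Timm17a and Timm17b are alternative subunits of the TIM23 channel, and neither passed in edgeR's TMM fit over all libraries. Timm17a (ENSMUSG00000062580) had 121, 136 and 146 CPM in HP-AKI and 133, 147 and 157 CPM in Sham, a log2 fold change of -0.12 ± 0.07 and an adjusted p of 0.143 by edgeR. Timm17b (ENSMUSG00000031158) had 7.31, 10.8 and 12.8 CPM in HP-AKI and 8.85, 14.9 and 17.6 CPM in Sham, a log2 fold change of -0.38 ± 0.17 and an adjusted p of 0.0575 by edgeR. Sham 1 and Sham 2 were the 2 lowest Sham libraries for Timm17b, and without them and HP-AKI 8 the groups did not overlap and its log2 fold change was -0.53, with an adjusted p of 2.14e-04 by edgeR. Leaving out HP-AKI 12 (-0.44), HP-AKI 13 (-0.46), Sham 1 (-0.45) or Sham 2 (-0.49) alone also brought Timm17b past the threshold. With all libraries kept, it passed with RLE factors, upper-quartile factors, no filter, DESeq2 and GC offsets within groups. In all, Timm17b passed in 10 of 21 alternatives. Timm17a passed in 2 of 21 alternatives. These were the fit without the 3 libraries, at -0.18 and an adjusted p of 0.0131 by edgeR, and upper-quartile factors, at -0.17.

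Timm50 (ENSMUSG00000003438), the TIM23 receptor that receives presequences in the intermembrane space, had 11.7, 18.2 and 23.6 CPM in HP-AKI and 15.0, 23.3 and 26.9 CPM in Sham. The groups overlapped widely, with a log2 fold change of -0.26 ± 0.18 and an adjusted p of 0.204 by edgeR. Without HP-AKI 8, Sham 1 and Sham 2 it was -0.39 with an adjusted p of 0.00911 by edgeR. Timm44 (ENSMUSG00000002949), which tethers the import motor to the channel, had 34.7, 47.3 and 59.6 CPM in HP-AKI and 37.0, 51.0 and 52.5 CPM in Sham, a log2 fold change of 0.03 ± 0.13 and an adjusted p of 0.857 by edgeR.

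Timm22 (ENSMUSG00000020843, chr11:76406952-76416292, plus strand), the channel of the carrier pathway, fell to 15.7, 17.5 and 19.6 CPM in HP-AKI, against 24.6, 27.7 and 30.4 CPM in Sham (lowest, median and highest). No library of either group lay within the range of the other. The log2 fold change was -0.65 ± 0.09, 1.57-fold lower, with an adjusted p of 6.91e-06 by edgeR. Timm10b (ENSMUSG00000089847), the small Tim that sits on the TIM22 complex, did not pass, with 10.5, 12.7 and 13.2 CPM in HP-AKI and 12.6, 13.1 and 14.1 CPM in Sham, a log2 fold change of -0.11 ± 0.08 and an adjusted p of 0.268 by edgeR. It shares 15187 bases with Dnhd1 on the same strand, which was given 6699 counts against 5630 for Timm10b.

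Of the 6 small Tim genes tested, the chaperones of the intermembrane space, 2 fell and 4 did not pass. That is 33.3% called, all lower, near the 35.2% of all genes tested that fell. Timm9 (ENSMUSG00000021079, chr12:71123173-71136675, minus strand), which forms a hexamer with Timm10, fell to 19.1, 21.7 and 22.2 CPM in HP-AKI, against 31.2, 33.7 and 35.8 CPM in Sham. Its libraries were tightly grouped and did not overlap, and the log2 fold change was -0.64 ± 0.07, 1.56-fold lower, with an adjusted p of 6.92e-07 by edgeR. Timm10 (ENSMUSG00000027076), the other subunit of that hexamer, had 10.9, 19.5 and 25.2 CPM in HP-AKI and 9.22, 17.0 and 17.5 CPM in Sham, with a log2 fold change of 0.34 ± 0.19 and an adjusted p of 0.124 by edgeR. It passed when HP-AKI 8 alone was left out, at 0.43 and an adjusted p of 0.0371, but not without HP-AKI 8, Sham 1 and Sham 2, at 0.21 and an adjusted p of 0.0679, both by edgeR.

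Timm8b (ENSMUSG00000039016, chr9:50603901-50605320, plus strand), a member of the family of Timm8 proteins that work with Timm13, fell to 34.9, 44.6 and 49.4 CPM in HP-AKI, against 50.0, 66.7 and 77.1 CPM in Sham. The groups came close without overlapping, since HP-AKI 13 stood at 49.4 CPM and Sham 2 at 50.0 CPM. The log2 fold change was -0.56 ± 0.11, 1.48-fold lower, with an adjusted p of 2.38e-04 by edgeR. Timm8b shares 81 bases with AU019823 on the opposite strand, where reads cannot be told apart. AU019823 was given 18089 counts over all libraries, against 23987 for Timm8b. Timm8a1 (ENSMUSG00000048007), the mouse counterpart of the human deafness-dystonia gene, had 8.48, 10.6 and 12.47 CPM in HP-AKI and 9.12, 9.58 and 13.6 CPM in Sham, and did not pass with an adjusted p of 0.989 by edgeR. Gm9797 is identical to it over 612 bases and holds 6.55% as many counts.

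Timm13 (ENSMUSG00000020219), the partner of the Timm8 proteins, varied most among libraries of the 22 tested members, with a coefficient of variation of 48.1% in HP-AKI and 46.7% in Sham. Its values ran over 5.39, 12.9 and 23.5 CPM in HP-AKI and 5.18, 17.1 and 22.7 CPM in Sham, with a log2 fold change of -0.15 ± 0.36 and an adjusted p of 0.711 by edgeR. The lowest values were in HP-AKI 8 and Sham 2, where GC-rich transcripts were counted least, and the part of this tilt in the spread was not tested.

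A ratio of 2 members within a library needs no scaling between libraries, and 9 pairs of known partners or paralogues were compared in this way. By an exact two-sided permutation test over 924 arrangements, 5 of 9 differed between the groups, each without overlap. Each stood at the smallest p the design allows, 0.00216, which is 0.0039 after Benjamini-Hochberg adjustment over the 9. Among single genes tested, 52.4% had groups without overlap, and the share among pairs of genes was not computed. Each of these 5 pairs holds a member called lower by itself (Tomm40l, Timm9, Timm22 or Tomm20). These tests are thus not independent of those calls. Timm8b over Timm13, Timm23 over Timm50 and Tomm40 over Tomm20 also hold a called member but did not pass.

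The largest shift was in the pore. The log2 ratio of Tomm40 to Tomm40l counts was -0.46 ± 0.38 in HP-AKI and -1.83 ± 0.47 in Sham (SD, n = 6 each), so that Tomm40 had 0.728 counts for each count of Tomm40l in HP-AKI, against 0.281 in Sham. HP-AKI libraries lay between -0.91 and 0.08 and Sham libraries between -2.61 and -1.41. The small Tim hexamer shifted the other way, with a log2 ratio of Timm9 to Timm10 of 0.22 ± 0.34 in HP-AKI and 1.21 ± 0.34 in Sham, or 1.17 counts of Timm9 per count of Timm10 in HP-AKI against 2.32 in Sham. The presequence channel stood higher against the carrier channel in HP-AKI, with a log2 ratio of Timm23 to Timm22 of 1.19 ± 0.18 in HP-AKI and 0.32 ± 0.31 in Sham.

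Among the receptors, the log2 ratio of Tomm70a to Tomm20 was 0.56 ± 0.12 in HP-AKI and -0.19 ± 0.18 in Sham, a count ratio of 1.47 in HP-AKI and 0.879 in Sham, not corrected for gene length. The log2 ratio of Tomm22 to Tomm20 was -1.11 ± 0.10 in HP-AKI and -1.51 ± 0.12 in Sham. All 5 differences kept their direction without HP-AKI 8, Sham 1 and Sham 2, at 1.18 for Tomm40 over Tomm40l, -0.90 for Timm9 over Timm10, 1.03 for Timm23 over Timm22, 0.81 for Tomm70a over Tomm20 and 0.39 for Tomm22 over Tomm20. Each had a p of 0.0159 and an adjusted p of 0.0238 by the exact permutation test. That is the smallest p that 5 HP-AKI and 4 Sham libraries allow, so it says only that the groups did not overlap.

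The other 4 pairs did not pass by the same exact permutation test. The difference in log2 ratio was 0.24 for Timm17a over Timm17b (adjusted p = 0.192), -0.44 for Timm8b over Timm13 (adjusted p = 0.225), 0.48 for Timm23 over Timm50 (adjusted p = 0.142) and 0.77 for Tomm40 over Tomm20 (adjusted p = 0.107), all from exact tests. Timm23 over Timm50, without HP-AKI 8, Sham 1 and Sham 2, was 0.70 with an adjusted p of 0.0238 by the exact permutation test, again at the smallest p possible. Tomm40 over Tomm20 moved both ways, to 0.94 without HP-AKI 8 alone (adjusted p = 0.0390) and to 0.49 without the 3 libraries (adjusted p = 0.107), both by the exact permutation test. Timm8b over Timm13 was -0.19 without the 3 libraries (adjusted p = 0.476, exact permutation test).

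**Figure D3:**
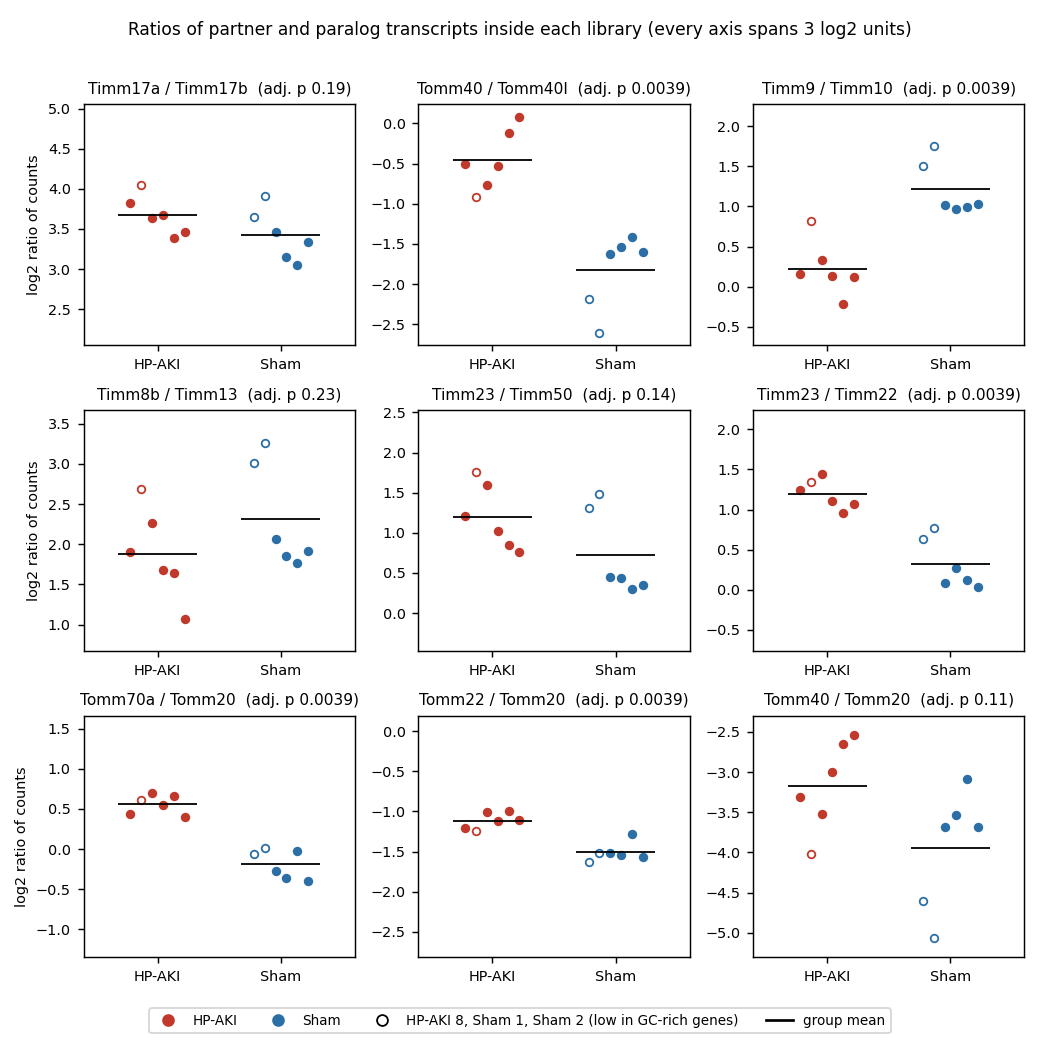
Log2 ratio of counts of 9 member pairs within each library, 6 HP-AKI and 6 Sham, with 1 point per library, open points for HP-AKI 8, Sham 1 and Sham 2, a bar at the group mean and the adjusted p of the exact permutation test. The ratio of Tomm40 to Tomm40l averages -0.46 in HP-AKI and -1.83 in Sham, and the groups do not overlap in 5 pairs.

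Levels were compared between genes per kilobase of the listed gene length. That length is 527 bases for Timm8b, 4239 for Tomm40 and 5135 for Tomm40l, so the order depends on the annotated lengths as well as on the counts. Timm8b was the most abundant member by this measure in both groups, at 83.4 ± 10.5 CPM per kilobase in HP-AKI and 123 ± 17.2 CPM per kilobase in Sham. In HP-AKI it was followed by Tomm22 (55.8 ± 2.96 CPM per kilobase), Tomm70a (52.5 ± 4.79 CPM per kilobase) and Tomm7 (46.7 ± 4.92 CPM per kilobase), and in Sham by Tomm7 (69.2 ± 5.26 CPM per kilobase), Tomm22 (53.2 ± 3.09 CPM per kilobase) and Tomm70a (39.7 ± 7.30 CPM per kilobase). Timm21 stood 14th of 22 in HP-AKI, at 10.6 ± 1.69 CPM per kilobase, and 8th in Sham, at 28.5 ± 4.36 CPM per kilobase. The pore genes were among the lowest, Tomm40 at 3.68 ± 1.19 CPM per kilobase in HP-AKI and 2.75 ± 0.97 in Sham and Tomm40l at 4.003 ± 0.43 in HP-AKI and 7.61 ± 0.70 in Sham. Most neighbours in this order could not be separated: of 21 neighbouring pairs, 2 had ranges without overlap in HP-AKI (Timm8b over Tomm22, and Timm9 over Timm17a) and 4 in Sham (Timm8b over Tomm7, Tomm7 over Tomm22, Tomm22 over Tomm70a, and Timm17b over Timm10b).

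**Figure D4:**
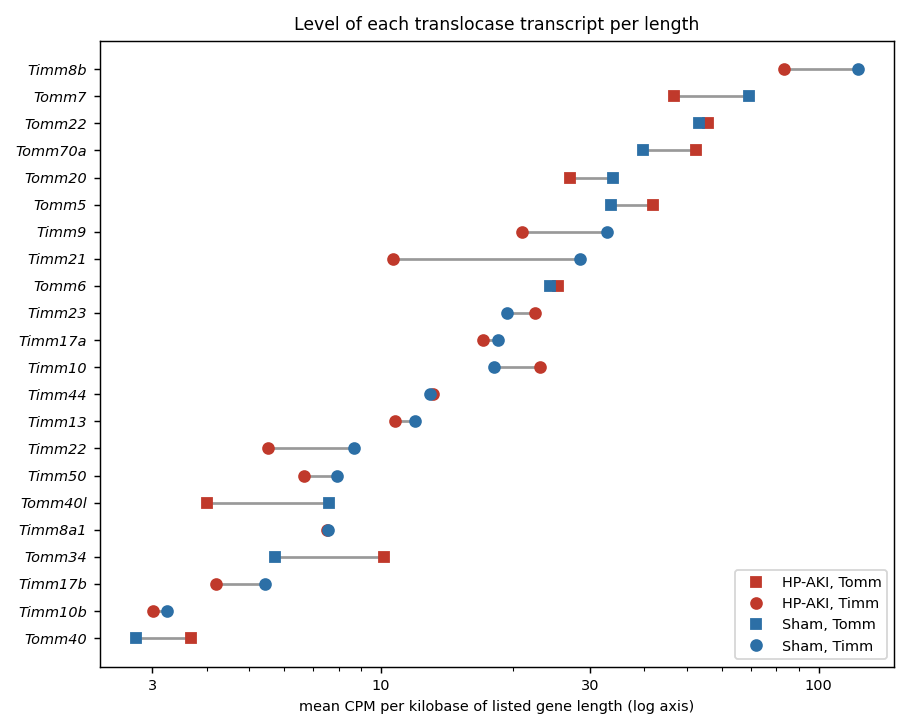
Mean level of each tested member in CPM per kilobase of listed gene length, in HP-AKI (red) and in Sham (blue), on a log axis, with squares for Tomm and circles for Timm genes. Timm8b is highest in both groups, at 83.4 in HP-AKI and 123 in Sham, and Timm21 stands at 10.6 in HP-AKI and 28.5 in Sham.

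The name rule leaves out some genes of related name. Timmdc1, an assembly factor of respiratory complex I, fell to 9.96 ± 1.46 CPM in HP-AKI, against 20.8 ± 2.08 CPM in Sham, without overlap and with a log2 fold change of -1.06 ± 0.11 and an adjusted p of 4.24e-07 by edgeR. Timm29, a TIM22 subunit listed as 1810026J23Rik, had 77.9 ± 3.20 CPM in HP-AKI and 84.8 ± 9.72 CPM in Sham and did not pass, with a log2 fold change of -0.12 ± 0.08 and an adjusted p of 0.170 by edgeR.

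Partners of the translocases in 8 lists were set beside them, with 55 genes tested, of which 13 rose and 24 fell (67.3% called, against 72.8% of all genes tested, 37.7% higher and 35.2% lower). Leaving out HP-AKI 8, Sham 1 and Sham 2 gave 14 higher and 31 lower of the 55, where 75.1% of all genes were called in either direction. The called share of these lists, below that of all genes over all libraries, was then above it. The cytosolic chaperones that deliver precursors were all higher, 9 of 9, with a median log2 fold change of 0.59, the same direction as their cochaperone Tomm34. Hsp90aa1, an inducible Hsp90, had 2180.4 CPM in HP-AKI and 564 CPM in Sham (log2 fold change 1.95 ± 0.14), and Hspa8, the constitutive Hsp70, had 3998 CPM in HP-AKI and 1855 CPM in Sham (1.11 ± 0.09). The import motor and TIM23 partners were mixed, 1 higher and 3 lower of 8 (50.0% called). In that list Dnajc19, a motor J-protein, fell to 12.8 CPM in HP-AKI against 30.3 CPM in Sham (-1.25 ± 0.12) and its paralogue Dnajc15 fell by 0.78 ± 0.07, while Hspa9, the motor's Hsp70, did not pass at 1344 CPM in HP-AKI and 1174 CPM in Sham (0.20 ± 0.10, adjusted p = 0.0833 by edgeR). The count of higher members in that list became 2 without HP-AKI 13 or without Sham 2, as Hspa9 then passed. With HP-AKI 8, Sham 1 and Sham 2 all left out, that list had 2 higher and 4 lower, with Hspa9 at 0.28 and an adjusted p of 0.00435 by edgeR, and with scaling by library size only it had 3 higher.

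Beyond the channels, 6 of 7 genes of the MICOS complex, which shapes the cristae and contacts the TOM and SAM complexes, fell with a median of -0.90, where 35.2% of all genes tested fell. All 7 were lower without HP-AKI 8, Sham 1 and Sham 2. Apoo fell by 1.51 ± 0.09, Chchd3 fell by 1.19 ± 0.07 and Immt fell by 0.90 ± 0.09 on the log2 scale. Of 7 peptidases that trim imported proteins, 4 fell and 1 rose (71.4% called, against 72.8% of all genes tested). Among those that fell were Mipep, at 23.4 CPM in HP-AKI and 63.5 CPM in Sham (-1.44 ± 0.09), and Pmpcb, a subunit of the matrix processing peptidase, at 140 CPM in HP-AKI and 299.9 CPM in Sham (-1.10 ± 0.07). In the disulfide relay that oxidises the small Tim proteins, Aifm1 fell to 81.0 CPM in HP-AKI against 229 CPM in Sham (-1.499 ± 0.07), and its partner genes Chchd4 and Gfer did not pass, at 0.03 and -0.19. Gfer was called lower without HP-AKI 8, Sham 1 and Sham 2, at -0.25 with an adjusted p of 0.0158 by edgeR, which made 2 of 3 lower in that list.

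Of the 7 SAM complex and outer membrane insertase genes, 3 fell, Samm50 (-0.56 ± 0.07), Mtx3 (-0.64 ± 0.11) and Mtch2 (-0.54 ± 0.09). That is 42.9% called, against 72.8% of all genes tested, 35.2% lower. The count was 5 without Sham 2 and 6 without HP-AKI 8, Sham 1 and Sham 2, where 75.1% of all genes were called in either direction. Of 3 genes of the TIM22 partner and OXA insertase list, Cox18, an insertase for cytochrome oxidase, rose with 10.97 CPM in HP-AKI and 5.57 CPM in Sham (0.98 ± 0.10), Oxa1l fell by 0.48 ± 0.14, and Agk, a TIM22 subunit, was called lower at -0.21 with an adjusted p of 0.0488 by edgeR. The call of Agk was lost without HP-AKI 7, 12 or 13 and without Sham 1, 2, 4 or 6, leaving 1 lower in that list. Of 11 matrix chaperones and quality control proteases 1 rose and 5 fell (6 without HP-AKI 8, Sham 1 and Sham 2), with 54.5% called over all libraries. Those that fell include the protease Oma1 (-1.13 ± 0.09), the chaperone Trap1 (-0.91 ± 0.10) and the chaperonin Hspd1 (-0.48 ± 0.11).

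**Figure D5:**
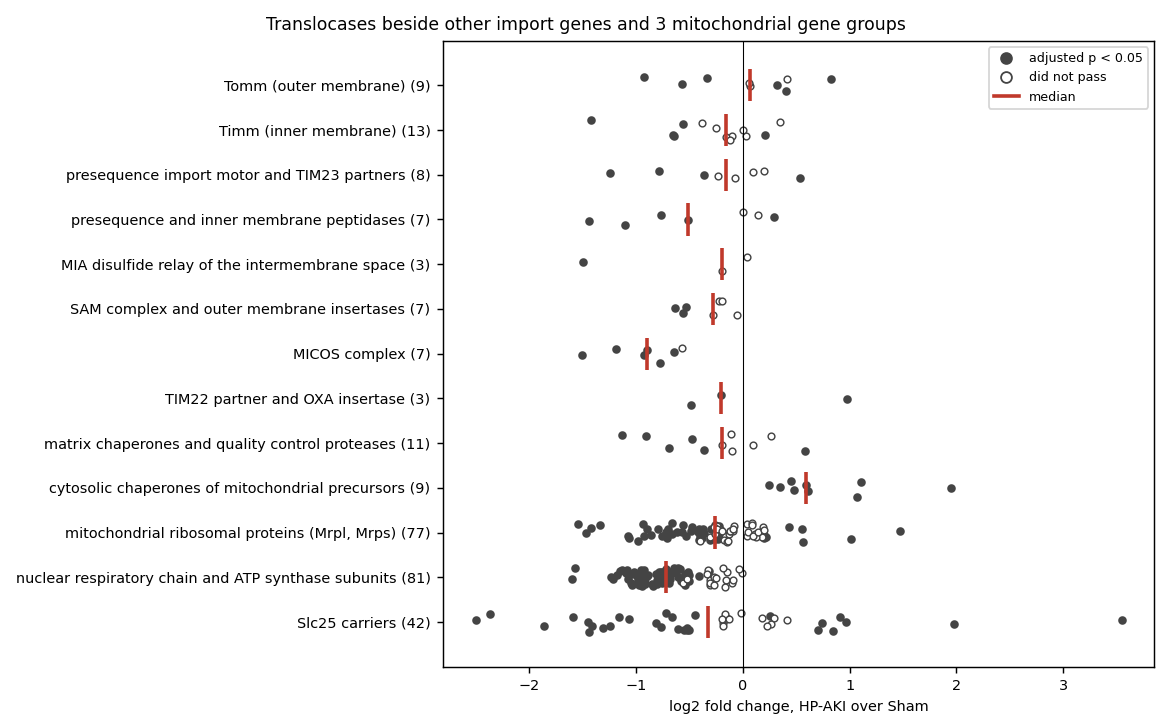
Log2 fold change (HP-AKI over Sham) of each tested gene in the translocase groups, the 8 lists of import partners and 3 other mitochondrial gene groups, 1 point per gene, filled where the gene passed, with a bar at the median. All 9 cytosolic chaperones lie above 0 and the MICOS genes lie below it, with a median of -0.90.

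Other nuclear genes for mitochondrial proteins give the frame for these counts. Of 81 tested respiratory chain and ATP synthase subunits 63 were lower (77.8% called, median -0.72), of 77 mitochondrial ribosomal proteins 8 were higher and 40 lower (62.3% called, median -0.26), and of 42 tested Slc25 carriers, the substrates of the TIM22 pathway, 8 were higher and 21 lower (69.0% called, median -0.32). The median of the translocases was -0.11 and 50.0% of them were called. These shares are descriptions, and no test of a difference between the gene groups was made.

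Cell type markers moved in both directions, where 72.8% of all genes tested were called, 37.7% higher and 35.2% lower. The 8 proximal tubule markers were all lower, with a summed level of 2101 to 3348 CPM in HP-AKI and 10358 to 12536 CPM in Sham. Of 6 markers of the thick ascending limb and distal convoluted tubule, 1 was higher and 4 were lower (4419 to 6660 CPM in HP-AKI, 7015 to 7855 CPM in Sham). Most of that sum was Umod, the marker called higher, with means of 4950 CPM in HP-AKI and 4153 CPM in Sham. The 4 lower ones fell between 2.78-fold (Slc12a3) and 14.4-fold (Pvalb). Of 6 macrophage and monocyte markers, 3 were higher and 3 lower, with sums that overlapped (71.2 to 104 CPM in HP-AKI, 67.5 to 88.2 CPM in Sham). The 4 tested neutrophil markers of 6 were all higher (17.6 to 143 CPM in HP-AKI, 1.83 to 3.49 CPM in Sham), and of 4 tested lymphocyte markers of 6, 3 were lower (0.565 to 0.874 CPM in HP-AKI, 3.34 to 3.76 CPM in Sham). No marker was at 0 counts over a whole group, and the part of these shifts in the members' results was not tested.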

How the data were processed

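RNA of mouse kidney was sequenced in 12 libraries, and 1 table with counts and RPKM per library was used. Trizol, a Qiagen kit and the TruSeq RNA v2 library kit were used, per the labels' protocols. Per the submitters' processing notes, TopHat2 2.1.0, featureCounts, edgeR and GRCm38 played a part, with settings not given in the sources used here. Counts, as deposited by the authors, are whole numbers without normalization. RPKM, made by the authors per kilobase of listed length, entered a check of totals alone, which lay at 2.98 to 3.47 times the count sums.

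The tests of HP-AKI against Sham used edgeR 4.0.16 under R 4.3.3 with limma 3.58.1. Genes were kept by filterByExpr and scaled by TMM, a two-sided quasi-likelihood F-test was run, and p-values were adjusted by Benjamini-Hochberg over 17470 genes. The log2 fold change divided by the square root of F gave its SE, with a median of 0.109 over the members. CPM carry the TMM factors. GC tilt compared the GC-richest with the GC-poorest 20% of genes. Pair ratios had a pseudocount of 0.5, came from members with at least 10 counts in each library, and were tested with SciPy 1.17.1. Alternatives were DESeq2 1.42.0, limma-voom, other factors and filters, and leaving out each library. GC offsets within groups were an alternative chosen after seeing the data. GC content and overlaps came from the GENCODE vM21 annotation, and near-identical copies from blastn 2.17.0 at 90% identity over 200 bases. Scripts were tested on simulated counts. No libraries of a group were near-identical (lowest chi-square per degree of freedom 8.79).

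The members, lists and tests were chosen with earlier results of these data known. Of 88 genes in the partner and marker lists 87 matched, and Qil1 was not analysed here. All members are named, and of each partner list the 2 called genes with the largest change and the most abundant one. Agk, Chchd4 and Gfer were named after their values were seen.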

Additional observations from a re-analysis of the deposited data

Results flagged for a closer look

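Over 62 sets of 6 values, 3 held a library with a gap to its nearest neighbour past the 95% bound of Dixon's test for its group's range, where chance passes about 1 in 20. Timm23 was 44.04 CPM in HP-AKI 9, the highest of its group. Timm9 was 19.13 CPM in HP-AKI 8, the lowest of its group. The log2 ratio of Tomm22 to Tomm20 was -1.284 in Sham 5, the highest of its group.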

How the results depend on the processing

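Over 21 alternatives, Tomm34, Tomm70a, Tomm20, Tomm7, Tomm40l, Timm8b, Timm9, Timm22 and Timm21 passed in each one, with the same direction. Members called higher numbered 2 with upper-quartile factors and with no filter, and 2 to 4 when 1 library was left out, against 7 to 8 lower. Timm genes called higher numbered 0 with RLE factors, upper-quartile factors, no filter or DESeq2 and 0 to 1 with 1 library left out. At an unadjusted p under 0.05 that count was 1 with RLE factors, no filter and DESeq2, 0 with upper-quartile factors and 1 with edgeR's TMM fit and with limma-voom. Timm genes called lower numbered 4 to 5 with 1 library left out and 7 without HP-AKI 8, Sham 1 and Sham 2, and Tomm genes called higher 2 to 3. Without these 3 libraries the ratio of Timm23 to Timm50 was 0.70, and the ratio of Tomm40 to Tomm20 was 0.55 to 0.94 with 1 library left out. GC offsets within groups gave 3 members higher and 9 lower (54.5%, against 78.6% of all genes).

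Direction turned only in genes that did not pass. With library size only, where the median of all genes is 0.16, Timm10b was 0.0123, Timm17a 0.000606, Timm8a1 0.12 and 1810026J23Rik 0.0021. Timm44 was -0.0296 with upper-quartile factors, -0.0157 with no filter and -0.0617 without the 3 libraries. Timm8a1 was 0.0119 with limma-voom, 0.0051 with GC offsets and 0.0939 without the 3 libraries, and Tomm6 was -0.0217 without them. With 1 library left out, Timm13 spanned -0.427 to 0.0077, Timm44 -0.0595 to 0.0764, Timm8a1 -0.0688 to 0.0699 and Tomm6 -0.0854 to 0.124. The cause was not tested. No paired analysis was possible because the groups share no sample numbers.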
